A study of Mus musculus with 12 samples.

Results

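The EGF receptor family is described here through 10 genes: the receptors Egfr, Erbb2 and Erbb3, the ligands Areg, Ereg, Hbegf, Tgfa, Btc and Epgn, and Lrig1, which encodes a transmembrane restraint on these receptors. A gene was taken when a probe set of the array carried its symbol and no other. Of the 10 genes 9 had 1 such probe set each, out of 19938 gene symbols measured in all, and Areg was not analysed here. The arrays measured sorted epidermal cells of mouse dorsal skin, with 3 arrays in each of 4 groups. Cells of the bulge, where hair follicle stem cells reside, came from untreated mice of 18 to 19 days that carried the Per1-Venus reporter, about 20 mice to a sample. The sort took CD34 cells with bright alpha6 integrin and divided them by bright Venus (clock-positive) or dim Venus (clock-negative). The labels of the clock-negative samples also state a Venus-high gate, so that group rests on the sample titles and the design text. Basal cells of the interfollicular epidermis came from untreated mice of 1 year, 5 to a sample, that were wild type or carried an epidermal knockout (KO) of Bmal1, whose gene symbol is Arntl. The driver of the knockout and the deleted part of the gene are not given in the sources used here, and the time of day of collection and the sex of the mice were not analysed.

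EGF receptor ligands are made as membrane proteins, are cut from the cell surface by metalloproteases and bind the receptor EGFR, which pairs with itself or with ERBB2 or ERBB3 and signals through the RAS-ERK and PI3K-AKT routes. In keratinocytes this signal is known to promote division, migration and wound closure and to hold back terminal differentiation. LRIG1 is known to lower the amount of ERBB receptors at the cell surface, and in mouse skin it marks stem cells of the upper hair follicle. The circadian clock is driven by BMAL1 with CLOCK, and Per1 is among the genes it switches on.

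The values are log2 intensities. The bulge and epidermis columns are filled for different probe sets and appear to have been normalized apart, so that levels were compared only within a tissue and only for the same gene. The keratinocyte gene Krt5 had mean values of 12.53 and 12.52 in bulge cells (clock-positive first) and 13.62 and 13.59 in KO and wild-type epidermis. Cd34 had means of 10.97 and 9.52 in the bulge groups and 6.49 and 6.60 in the epidermis groups. The probe set of Arntl read 9.27, 9.47 and 9.34 in the wild type and 9.85, 9.60 and 9.55 in the KO, and does not check the genotype since its place relative to the deletion was not analysed here. Nr1d1, a clock gene that BMAL1 drives, fell by 3.98 ± 0.12 (SE) on the log2 scale in the KO (limma adjusted p = 1.08e-05). In the epidermis, wild-type array 1 and KO array 3 lay at 1 end of the first principal component (scores of -22.4 and -19.4, against 18.9 for KO array 1), a component with 48.2% of the variance on which the genotypes were mixed.

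In Bmal1 KO epidermis the ligands Epgn and Hbegf had higher values than in wild type in all 3 arrays, about 2.13-fold for Epgn and 1.72-fold for Hbegf, while Egfr, Erbb2, Erbb3, Lrig1 and Btc had mean differences within 0.03 of 0 on the log2 scale. With the spread of the 6 epidermis arrays no member passed an adjusted p under 0.05 in limma; Epgn lay just outside it. In bulge cells Egfr and Lrig1 rose and the ligand Btc fell in clock-positive cells, each by less than 1.5-fold. The Lrig1 call was lost after quantile normalization and cyclic loess. The bulge comparison called 63.5% of all genes, so a share of 3 members in 8 tested lies below the background.

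Epgn encodes epigen, a low-affinity EGFR ligand of epithelia. In wild-type arrays 1 to 3 its values were 10.22, 9.88 and 9.95, and KO arrays 1 to 3 gave 11.32, 11.16 and 10.83. Every KO array lay above every wild-type array, and the lowest KO value stood 0.61 above the highest wild-type value. The means were 11.11 ± 0.25 (SD, n = 3) in the KO and 10.02 ± 0.18 in wild type. The log2 difference was 1.09 ± 0.15 (SE; 95% interval 0.73 to 1.45), larger than the spread between replicates, with an unadjusted p of 1.03e-04 and an adjusted p of 0.0509 over 13957 genes in limma. Of all genes tested 99.9% had a lower value of this difference. The call depended on the setting, and Epgn passed in 7 of 16 others. The adjusted p was 0.0175 without wild-type array 1, 0.0432 after quantile normalization, 0.0257 after cyclic loess, 0.0171 after eBayes with trend and 0.0260 once the dimmest 50% were dropped. It was 0.00217 without wild-type array 1 and KO array 3 together and 4.15e-04 with the spread of all 12 arrays. The former setting was chosen after seeing the data. The latter draws also on the bulge arrays, where the median SE of all genes was 0.07 against 0.13 in epidermis. In the other settings Epgn missed the threshold, with an adjusted p of up to 0.210 without any 1 array and of 0.295 with the replicate number as a block. The direction was the same in all 16 settings, from 0.98 to 1.33.

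Hbegf encodes heparin-binding EGF-like growth factor, a ligand that wounding is known to induce in keratinocytes. Wild-type arrays 1 to 3 read 8.96, 8.99 and 8.66, and KO arrays 1 to 3 read 9.36, 9.91 and 9.70. Here too the genotypes did not overlap, and the KO array with the lowest Hbegf value, array 1, was the one with the highest Epgn value. Hbegf was 0.78 ± 0.16 higher in the KO (95% interval 0.41 to 1.16, limma adjusted p = 0.163), and it passed in 1 of 16 other settings, the fit that took its spread from all 12 arrays (adjusted p = 0.00449). Tgfa, which encodes TGF-alpha, read 8.69, 8.65 and 8.69 in wild type against 8.90, 8.81 and 8.77 in the KO. Its difference was small, 0.15 ± 0.09 (limma adjusted p = 0.832), although its groups did not overlap either. In all 3 of the 8 members tested had genotypes that did not overlap, against 12.7% of all genes tested, and 0 of 8 passed the threshold, against 0.193% of all genes in either direction, 0.0788% higher and 0.115% lower. At an unadjusted p under 0.05, 2 members passed, and 1111 of all 13957 genes.

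**Figure D1:**
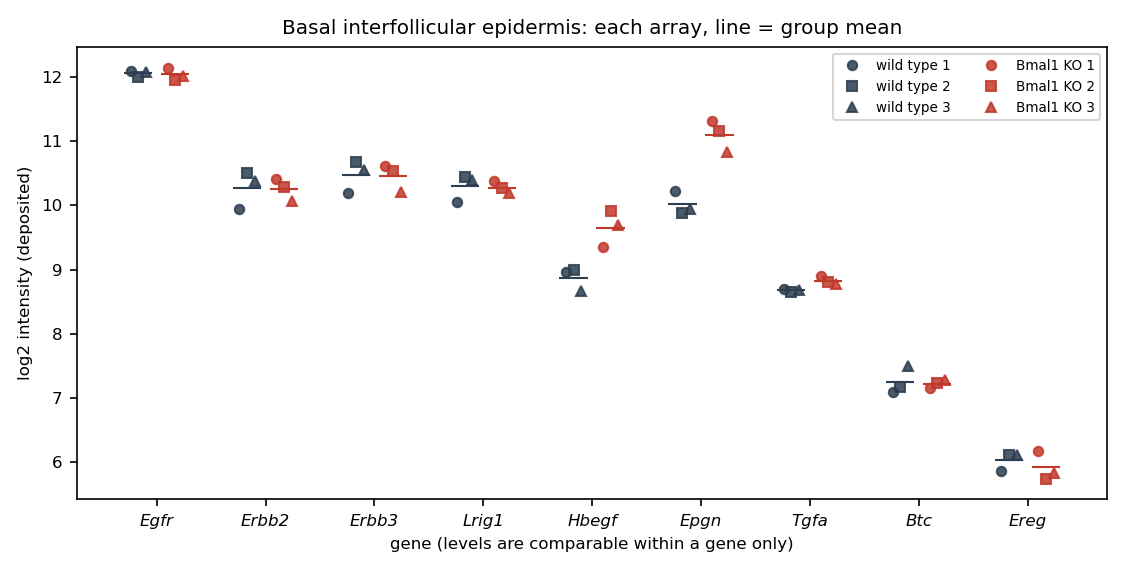
Log2 intensity of the 9 measured members in each array of basal interfollicular epidermis, with wild type on the left and Bmal1 KO on the right of each gene, the array number given by the marker and the group mean by a line. Epgn and Hbegf are the genes whose groups stand clearly apart; Erbb2, Erbb3 and Lrig1 are lowest in wild-type array 1 and KO array 3 within their groups.

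Markers of other cells were read on the same arrays. None of the 5 T cell, 5 myeloid and Langerhans cell, 7 differentiated epidermis and 6 upper follicle markers tested passed in limma as deposited. Without wild-type array 1, 4 of the 6 T cell and 3 of the 5 myeloid markers then tested were called lower in the KO. The mean log2 level of 7 measured T cell markers ran from 7.18 to 7.30 in the KO and from 7.69 to 8.76 in wild type, and that of 9 myeloid and Langerhans cell markers from 6.76 to 6.91 and from 6.90 to 8.06. The genotypes did not overlap in the T cell mean and overlapped in the myeloid one. In both lists wild-type array 1 was the lowest of its genotype, whereas its Epgn value of 10.22 was the highest of the 3. The mean level of 7 markers of differentiated epidermis ran from 11.01 to 11.23 in the KO and from 11.12 to 11.74 in wild type. For 6 markers of the upper hair follicle it ran from 9.43 to 9.90 and from 9.54 to 10.45, and the genotypes overlapped in both means. The part of these lists in the ligand values was not tested. In sorted pools, fewer cells of a type and less RNA per cell cannot be told apart.

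Epgn, Ereg, Areg and Btc follow each other in this order among the protein-coding genes of mouse chromosome 5 in the RefSeq table of assembly GRCm38.p6. The 250 bases before the start of Epgn and of Btc are shown because these ligands had the largest member differences in epidermis and in bulge. They are RefSeq sequences of build GRCm38.p6, written in the direction of transcription, and capitals mark a match to TATAAA.
Epgn, chr5:91027267-91027516, plus strand: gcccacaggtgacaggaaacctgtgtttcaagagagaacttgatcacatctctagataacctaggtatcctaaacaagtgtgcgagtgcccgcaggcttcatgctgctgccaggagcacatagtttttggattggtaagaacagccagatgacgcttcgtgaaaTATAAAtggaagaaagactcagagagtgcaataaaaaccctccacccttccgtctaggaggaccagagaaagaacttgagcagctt
Btc, chr5:91402995-91403244, minus strand: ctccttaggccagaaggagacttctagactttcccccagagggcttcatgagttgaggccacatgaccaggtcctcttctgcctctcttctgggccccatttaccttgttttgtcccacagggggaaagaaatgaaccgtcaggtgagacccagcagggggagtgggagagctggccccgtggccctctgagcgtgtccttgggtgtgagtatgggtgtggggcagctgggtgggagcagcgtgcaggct
The Epgn match begins 86 bases before the start; TATAAA, searched on both strands, occurs in 12.4% of 32851 such windows. The core E-box CACGTG, which reads the same on both strands and is the letter pattern that BMAL1 with CLOCK is known to bind, is in 0 of the 7 member windows that the table holds (Epgn, Areg, Btc, Tgfa, Lrig1, Egfr and Erbb2) and in 6.02% of all windows. The absence of the letters says nothing of binding elsewhere at these genes.

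Btc encodes betacellulin, which binds both EGFR and ERBB4. In bulge cells it read 6.89, 6.84 and 6.79 in clock-positive arrays 1 to 3 and 7.39, 7.27 and 7.48 in clock-negative arrays 1 to 3. All clock-positive arrays lay below all clock-negative ones. Btc fell by 0.54 ± 0.07 in clock-positive cells (limma adjusted p = 1.80e-04), from a mean of 7.38 ± 0.11 (SD, n = 3) to 6.84 ± 0.05, and 2.67% of all genes had a lower value of this difference. It kept its call in all 14 other settings in which it was tested, at -0.59 to -0.40. In epidermis Btc read 7.09, 7.17 and 7.49 in wild type and 7.15, 7.23 and 7.28 in the KO, so that the genotypes overlapped (-0.03 ± 0.13, 95% interval -0.32 to 0.27).

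The other ligands differed little between the bulge sorts. Tgfa read 7.47, 7.77 and 7.58 in clock-positive and 7.78, 7.78 and 7.82 in clock-negative arrays, a difference of -0.18 ± 0.08 (limma adjusted p = 0.0642). It passed as lower with quantile normalization (adjusted p = 0.0347) and with cyclic loess (adjusted p = 0.0253). It also did so without clock-positive array 2 (adjusted p = 0.0162) and with the replicate number as a block. Hbegf, at 8.05, 7.88 and 8.01 against 8.11, 8.11 and 8.01, overlapped (-0.09 ± 0.07, adjusted p = 0.243), passed as lower after quantile normalization and cyclic loess, and turned to 0.05 after median centring. Epgn read 6.98, 7.11 and 7.13 in clock-positive and 7.25, 7.02 and 7.35 in clock-negative arrays, and the groups overlapped too (-0.13 ± 0.09, adjusted p = 0.213). It passed without clock-negative array 2 (-0.22, adjusted p = 0.0246). Ereg, which encodes epiregulin, lay among the dimmest 30% of genes in both sets and was not tested. It read 5.43, 5.32 and 5.37 in clock-positive and 5.42, 5.61 and 5.65 in clock-negative arrays, and 5.85, 6.11 and 6.11 in wild-type and 6.17, 5.74 and 5.83 in KO arrays, with overlap in both tissues.

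**Figure D2:**
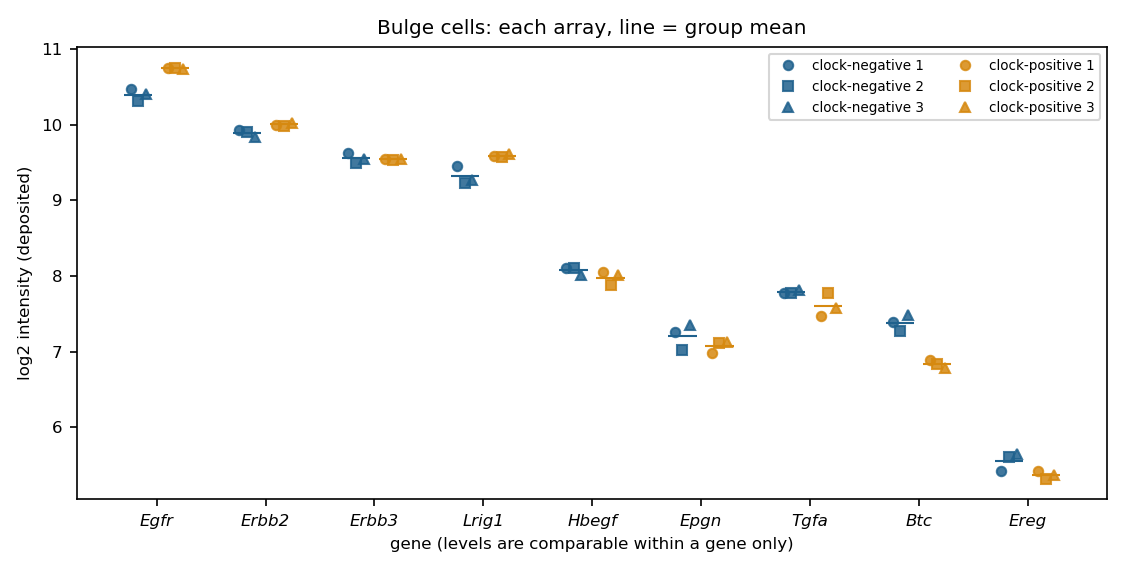
Log2 intensity of the 9 measured members in each bulge array, with clock-negative cells on the left and clock-positive cells on the right of each gene, the array number given by the marker and the group mean by a line. Egfr and Lrig1 lie higher and Btc lower in all 3 clock-positive arrays, and these genes were called. Erbb2 (higher) and Tgfa (lower) were not called, but their groups did not overlap either, with gaps of 0.05 and 0.003. Of all genes tested 69.2% had groups that did not overlap.

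Egfr, the receptor that all 6 ligands bind, read 10.75, 10.75 and 10.74 in clock-positive bulge arrays 1 to 3 and 10.47, 10.31 and 10.41 in clock-negative arrays 1 to 3. The groups did not overlap, and the clock-positive arrays were nearly equal. Egfr rose by 0.35 ± 0.06 (1.28-fold, limma adjusted p = 0.00124) and kept its call in all 15 other settings, from 0.18 to 0.49. The median difference of all genes was 0.15 as deposited, 0.29 after median centring, 0.07 after quantile normalization and 0.04 after cyclic loess, and Egfr lay 0.20 above the deposited one. In epidermis Egfr read 12.09, 12.01 and 12.09 in wild type and 12.15, 11.96 and 12.02 in the KO. The difference there was -0.02 ± 0.10, with a 95% interval from -0.25 to 0.21. The 250 bases before its start are shown because it is the receptor common to the ligands; capitals mark a match to GGGCGG, the GC box, here on the opposite strand and beginning 9 bases before the start.
Egfr, chr11:16751953-16752202, plus strand: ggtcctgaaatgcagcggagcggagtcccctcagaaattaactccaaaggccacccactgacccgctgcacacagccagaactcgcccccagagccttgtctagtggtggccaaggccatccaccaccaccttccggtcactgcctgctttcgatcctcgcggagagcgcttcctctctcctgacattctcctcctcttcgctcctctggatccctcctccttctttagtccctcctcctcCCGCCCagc
The GC box is in 4 of the 7 member windows and in 32.7% of all windows.

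Lrig1 was also higher in clock-positive bulge cells, at 9.58, 9.57 and 9.61 in clock-positive and 9.45, 9.23 and 9.27 in clock-negative arrays. It rose by 0.27 ± 0.07 (1.21-fold, limma adjusted p = 0.00836), with no overlap of the groups. The call was lost with quantile normalization (0.098, adjusted p = 0.196), with cyclic loess (0.050, adjusted p = 0.475) and with the spread of all 12 arrays (adjusted p = 0.0597). Markers of the upper hair follicle, where Lrig1 is known to be expressed, had a mean log2 level of 9.51 to 9.56 in clock-positive and 9.51 to 9.52 in clock-negative cells. Of these 6 markers 2 were called higher and 1 lower as deposited, against 45.2% and 18.3% of all genes. After quantile normalization or cyclic loess 1 was called higher and 3 lower. In epidermis Lrig1 read 10.06, 10.45 and 10.39 in wild type and 10.38, 10.27 and 10.19 in the KO, a difference of -0.02 ± 0.13 (95% interval -0.32 to 0.28).

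Erbb2, a receptor with no known ligand of its own that serves as a partner of the others, read 10.00, 9.98 and 10.02 in clock-positive and 9.93, 9.90 and 9.84 in clock-negative cells. These values did not overlap, but the difference of 0.11 ± 0.06 missed the threshold (limma adjusted p = 0.129); it was called higher after median centring (0.25) and was at -0.04 and -0.09 after quantile normalization and cyclic loess. Erbb3, a receptor of neuregulins with little kinase activity of its own, read 9.54, 9.53 and 9.55 against 9.63, 9.49 and 9.54 (-0.01 ± 0.06, adjusted p = 0.882). It was called lower after quantile normalization (-0.18) and cyclic loess (-0.23). In epidermis Erbb2 read 9.95, 10.50 and 10.38 in wild type and 10.41, 10.29 and 10.07 in the KO, and Erbb3 read 10.19, 10.68 and 10.56 and then 10.62, 10.54 and 10.21. For both receptors, and for Lrig1, wild-type array 1 and KO array 3 were the lowest of their groups, and the differences between genotypes of -0.02 ± 0.16 for each receptor had 95% intervals from -0.40 to 0.36 for Erbb2 and from -0.39 to 0.35 for Erbb3. These are the arrays that lay together on the first principal component.

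**Figure D3:**
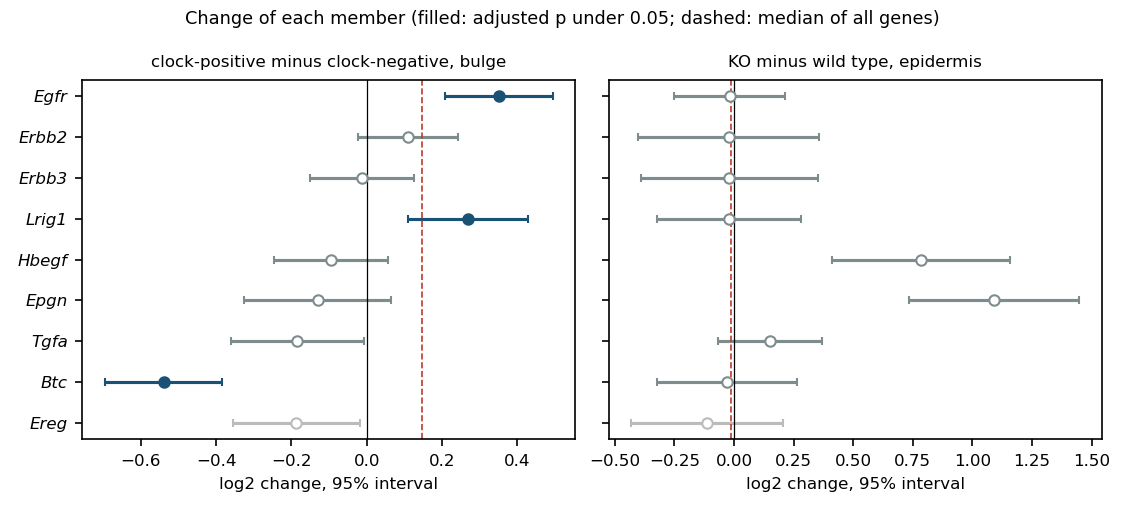
Log2 difference of each measured member with its 95% interval from limma, for clock-positive minus clock-negative bulge cells on the left and Bmal1 KO minus wild-type epidermis on the right. Filled points passed an adjusted p under 0.05, Ereg in pale grey was too dim to be tested, and the dashed line is the median difference of all genes, 0.15 in bulge and -0.01 in epidermis.

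Over the 8 members tested the median difference was -0.05 in bulge, against 0.15 for all genes, and -0.02 in epidermis, against -0.01. In bulge 2 of 8 members were called higher, against 45.2% of all genes, and 1 of 8 lower, against 18.3%; 5 of 8 had groups that did not overlap, against 69.2%. The calls of all genes were 6311 higher and 2555 lower as deposited, 8928 and 1355 after median centring, 4113 and 1696 after quantile normalization and 3531 and 2208 after cyclic loess. After quantile normalization or cyclic loess 1 member, Egfr, was called higher and 4 were called lower, Btc, Tgfa, Hbegf and Erbb3. In the bulge comparison T cell markers (7 of 7 lower), markers of the hair shaft and inner root sheath (7 of 7 lower), bulge markers (8 of 8 higher) and endothelial markers (6 of 6 higher) moved with the sort. Of 7 myeloid and Langerhans cell markers 5 were called lower and 2 higher, with a median of -0.57. The part of these lists in the member values was not tested.

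Whether the bulge and epidermis comparisons gave a member different values was tested as the bulge difference (clock-positive minus clock-negative) minus the epidermis difference (wild type minus KO), over 12 arrays and 13100 genes. This contrast passed for 16.7% of all genes and for 3 of the 8 members. Epgn gave 0.96 ± 0.19 (limma adjusted p = 0.00469), Hbegf gave 0.69 ± 0.18 (adjusted p = 0.0222) and Btc gave -0.57 ± 0.15 (adjusted p = 0.0217). For Epgn the epidermis part was the larger, since its values were higher in the KO there and differed by -0.13 in bulge. For Hbegf neither part passed by itself. It was at -0.09 in bulge (limma adjusted p = 0.243) and 0.78 for KO minus wild type (adjusted p = 0.163). Nor did either part pass by itself for Epgn. For both genes the unadjusted limma p of the contrast was larger than that of the epidermis part. It was 1.48e-04 against 1.03e-04 for Epgn and 0.00195 against 0.00124 for Hbegf. For Btc the bulge part was the larger, with -0.54 against -0.03 for KO minus wild type. Egfr, at 0.33 ± 0.12, missed the threshold (adjusted p = 0.0636). Epgn kept its call in all 20 other settings in which it was tested, while Hbegf missed the threshold in 8 of 21 and Btc in 4 of 20. Hbegf lost its call without clock-positive array 1 or 3, clock-negative array 2 or 3 or KO array 2 (adjusted p up to 0.0625), and after quantile normalization or cyclic loess (adjusted p up to 0.102). Btc lost it without clock-positive array 3 or clock-negative array 3 (adjusted p up to 0.0635) and after median centring (adjusted p = 0.0628). The remaining setting for each was the fit with the replicate number as a block. The comparisons differ in kind, since one is a sort by reporter brightness, with which the marker lists above moved, and the other is a knockout. They also differ in tissue, age, pool size and normalization, and these cannot be told apart here.

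**Figure D4:**
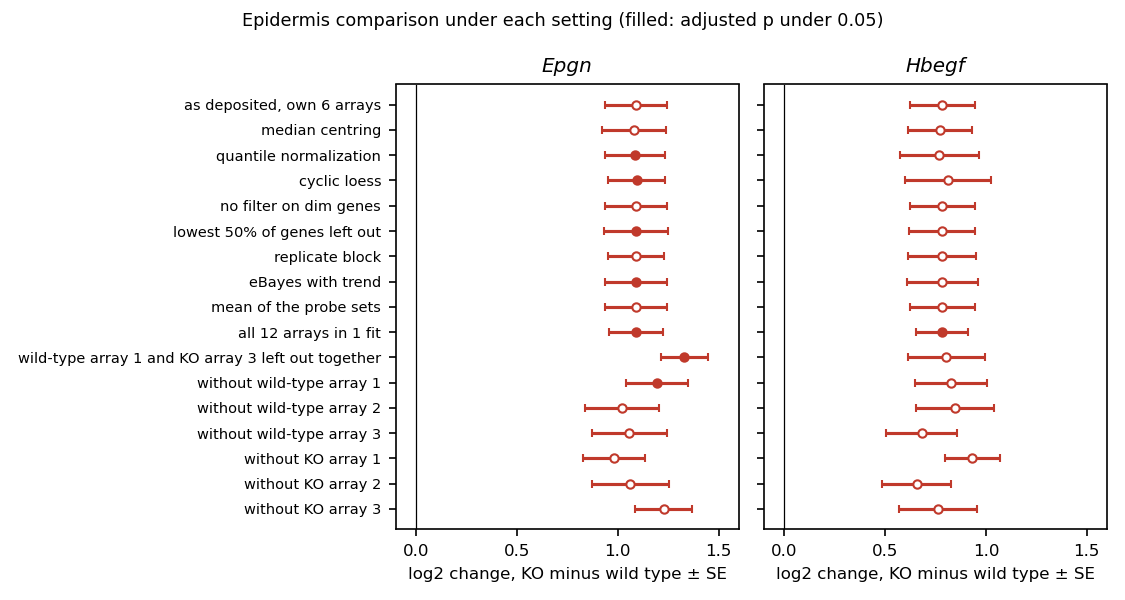
Log2 difference of Epgn and Hbegf between Bmal1 KO and wild-type epidermis, with its SE, under the deposited setting in the top row and each of 16 other settings below it. All points lie above 0; filled points passed an adjusted p under 0.05, 7 of 16 other settings for Epgn and 1 of 16 for Hbegf.

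Other genes of the pathway were read in 5 lists. In epidermis none of the 59 listed genes tested passed in limma, and the gene with the smallest p of each list is given. Dusp6, a phosphatase that ERK signalling induces and that switches ERK off, read 8.08, 8.73 and 8.72 in wild type and 9.26, 9.32 and 9.21 in the KO. The genotypes did not overlap, and the difference was 0.75 ± 0.18 (adjusted p = 0.214; 0.0129 with the spread of all 12 arrays). Adam8, a surface metalloprotease, read 8.32, 9.01 and 8.71 in wild type and 9.41, 9.17 and 9.18 in the KO (0.57 ± 0.17, adjusted p = 0.367). Its genotypes did not overlap either, and for Dusp6 and Adam8 alike wild-type array 1 was the lowest of its group. The neuregulin gene Nrg1 was at 0.30 ± 0.11 (adjusted p = 0.530), the transcription factor gene Jun at 0.57 ± 0.26 (adjusted p = 0.653) and Sos2, an exchange factor of RAS, at -0.21 ± 0.11 (adjusted p = 0.751). The 14 ERK-driven transcripts tested had a median of 0.19 against -0.01 for all genes. Averaged per array, their log2 level spanned 8.90 to 9.29 for the KO against 8.69 to 9.12 for wild type, so the genotypes overlapped. KO array 3 and wild-type array 1, which lay together on the first principal component, had the lowest average of each genotype. The 14 brakes of the receptors and ERK tested had a median of 0.01.

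In bulge cells 37 of the 60 listed genes tested were called, against 63.5% of all genes. The counts of each list are read against the share of all genes called in that setting. Higher calls made up 45.2% of all genes as deposited, 64.0% after median centring, 29.5% after quantile normalization and 25.3% after cyclic loess, and lower calls 18.3%, 9.71%, 12.2% and 15.8%. Of 14 ERK-driven transcripts 9 rose and 1, Egr2, fell in clock-positive cells, with a median of 0.31 against 0.15 for all genes. Ier3, an early response gene, rose by 1.10 ± 0.08 (adjusted p = 2.55e-06), from 8.39, 8.15 and 8.17 in clock-negative to 9.29, 9.33 and 9.40 in clock-positive arrays. Phlda1 rose by 1.07 ± 0.10, Jun by 0.64 ± 0.07 and Ier2 by 0.58 ± 0.07. None of these 4 genes had groups that overlapped, but they were picked for the smallest p of the list. Of all genes tested 69.2% had groups that did not overlap. After cyclic loess 6 of the list were higher and 2 lower, and after median centring 11 and 0. Of 16 brakes of the receptors and ERK 6 rose and 0 fell, both below the shares of all genes, with a median of 0.16. Spred1, which restrains RAS-ERK signals, rose by 0.63 ± 0.07 and Dusp6 by 0.58 ± 0.09. Rnf41, a ubiquitin ligase of ERBB3, rose by 0.45 ± 0.07. Spry2, a feedback inhibitor of receptor tyrosine kinases, rose by 0.29 ± 0.07, a call lost after quantile normalization, after cyclic loess and with the spread of all 12 arrays (adjusted p = 0.228). After median centring 13 of the brakes rose, and 5 after quantile normalization or cyclic loess.

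Of 17 measured genes that relay the signal 12 rose and 0 fell in clock-positive cells, and all 17 after median centring, but 4 after quantile normalization or cyclic loess, a lower share than that of all genes; the list median was 0.23. Pik3r1, a regulatory subunit of PI3K, rose by 0.67 ± 0.06, Akt1 by 0.44 ± 0.06 and the adaptor Grb2 by 0.37 ± 0.06, each with its call under every scaling, while Sos2 at 0.27 ± 0.06 lost it after quantile normalization and cyclic loess. Of 8 genes tested for ligand shedding 4 rose and 2 fell, near the shares of all genes, and after quantile normalization or cyclic loess 0 rose and 2 fell. Adam8 fell by 0.52 ± 0.07 and Rhbdl2, a membrane protease of the rhomboid family, fell by 0.33 ± 0.07, both under every scaling. Adam9 was at 0.36 ± 0.07 and Timp3, an inhibitor of metalloproteases, at 0.27 ± 0.07, both called higher as deposited but not after quantile normalization or cyclic loess. Timp3 also missed the threshold with the spread of all 12 arrays (adjusted p = 0.212). Of the relatives of the members, Lrig3 rose by 0.46 ± 0.07, with 9.64, 9.68 and 9.69 in clock-positive against 9.27, 9.09 and 9.27 in clock-negative arrays. Lrig2 rose by 0.28 ± 0.06, a call lost with the spread of all 12 arrays (adjusted p = 0.104). Egf itself fell by 0.38 ± 0.06 (adjusted p = 8.22e-04).

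**Figure D5:**
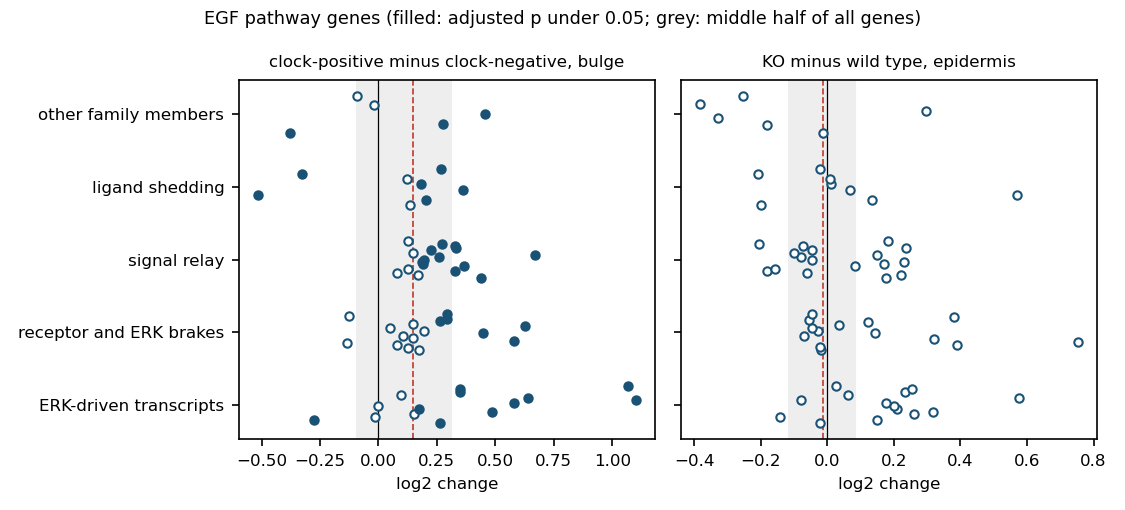
Log2 differences of the tested genes of 5 pathway lists, clock-positive minus clock-negative bulge cells on the left and Bmal1 KO minus wild-type epidermis on the right, with filled points past an adjusted p under 0.05. The grey band is the middle 50% of all genes and the dashed line their median; in epidermis no point is filled.

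The genes most like Egfr and Lrig1 were ranked by Pearson's r over the 12 arrays, with values centred within each tissue, among 13099 genes. For Egfr they were Pja2, Cbr4 and Nt5e, with r of 0.98 each, and for Lrig1 they were Gtf3c5, Mavs and Ilk, with r of 0.98, 0.98 and 0.98. These values describe 12 arrays that share the division of the bulge sorts, by which 63.5% of genes were called.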

How the data were processed

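Gene expression was measured on Affymetrix arrays in 12 samples, 3 in each of 4 groups taken from the sample titles. The authors deposited log2 intensities. The submitters' processing notes name RMA, with no version or settings given in the sources used here, and the log2 scale is read from the values. The RNA was amplified before labelling, per the labels' protocols. Nothing says whether samples of a group are separate beyond their pools of mice. No columns were identical.

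Of 35512 probe sets 21789 carry 1 symbol in the platform annotation, and these were used. For symbols with several probe sets, the one measured on all 12 arrays was preferred, then the brightest; each member has 1. In each tissue the dimmest 30% of genes were left out. limma 3.58.1 in R 4.3.3 (lmFit, eBayes, two-sided) was fitted to the 6 arrays of a tissue, or to 12 for the difference between tissues, with Benjamini-Hochberg adjustment over all genes tested and a threshold of 0.05. The number of arrays limits the precision. Values after ± are standard errors unless marked SD. The code was tested on simulated data. Members and lists were chosen with earlier results of these data known. All members are named; of each of 5 pathway lists, up to 4 called genes with the smallest p, or the 1 with the smallest p where none was called, and for Egfr and Lrig1 the 3 genes most like them. The 11 marker lists hold bulge, basal epidermis, upper follicle, differentiated epidermis, hair shaft and inner root sheath, sebocyte, T cell, myeloid, melanocyte, dermal fibroblast and endothelial genes.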

Additional observations from a re-analysis of the deposited data

Results flagged for a closer look

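The difference between the bulge and epidermis comparisons, a sort by reporter brightness and a knockout, passed the limma threshold for 3 members. For Epgn the bulge difference (clock-positive minus clock-negative) minus the epidermis difference (wild type minus KO) was 0.96, for Hbegf 0.69 and for Btc -0.57. This contrast passed for 16.7% of all genes tested. For Epgn and Hbegf neither the bulge nor the epidermis difference passed by itself as deposited. Before adjustment, the limma p of the contrast was larger than that of the epidermis difference alone. It was 1.48e-04 against 1.03e-04 for Epgn and 0.00195 against 0.00124 for Hbegf. The adjustment of the contrast ran over genes of which 16.7% passed, against 0.193% in epidermis.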

How the results depend on the processing

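The members called higher in bulge were 2 as deposited, 3 after median centring, 1 after quantile normalization, cyclic loess or with the spread of all 12 arrays, and 2 without any 1 array. Those called lower were 1 as deposited, 4 after quantile normalization or cyclic loess, 0 with the lowest 50% of genes left out, where Btc was not tested, 2 with the replicate number as a block, and 1 to 2 without any 1 array (2 without clock-positive array 2 or clock-negative array 2). In epidermis 0 were called higher as deposited, 1 (Epgn) after quantile normalization, cyclic loess, eBayes with trend, with the lowest 50% of genes left out or without wild-type array 1 and KO array 3 together, 2 with the spread of all 12 arrays, and 0 to 1 without any 1 array (1 without wild-type array 1); 0 were lower in any setting. Leaving out those 2 arrays was chosen after seeing the data. In the difference between tissues 2 were called higher as deposited, 3 after median centring, which adds Egfr at 0.47, after eBayes with trend or without wild-type array 1 and KO array 3 together, 1 after quantile normalization, cyclic loess, with the lowest 50% left out or the replicate block, and 1 to 2 without any 1 array. Called lower there were 1 as deposited, 0 to 1 without any 1 array, and 0 after median centring or with the replicate block. With the lowest 50% left out it was 0 too, but neither Epgn nor Btc was tested in that setting. With the replicate block Tgfa was called lower in bulge (adjusted p = 0.0427), Epgn in epidermis was at an adjusted p of 0.295, and in the difference between tissues Hbegf was at 0.0773 and Btc at 0.0668. The cause of these changes was not tested.

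Signs turned only for members that missed the threshold as deposited. In bulge median centring gave 0.131 for Erbb3, 0.0473 for Hbegf and 0.0122 for Epgn, and Erbb2 was at -0.0430 after quantile normalization and -0.0887 after cyclic loess. Without single arrays Erbb3 ran from -0.0430 to 0.0260 in bulge, and in epidermis Egfr ran from -0.0720 to 0.0242, Erbb2 from -0.187 to 0.0911, Erbb3 from -0.160 to 0.102, Lrig1 from -0.142 to 0.0533 and Btc from -0.111 to 0.0917. Without wild-type array 1 and KO array 3 together Egfr was at 0.00695. In the difference between tissues median centring gave 0.102 for Erbb3 and 0.0984 for Tgfa, Erbb2 was at -0.0730 after quantile normalization and -0.102 after cyclic loess, and without single arrays Erbb2 ran from -0.0771 to 0.201, Erbb3 from -0.171 to 0.0902 and Tgfa from -0.117 to 0.0355.

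Counts of all genes called in epidermis moved most: 11 higher and 16 lower as deposited, 150 and 257 with the spread of all 12 arrays, 0 and 3 with the replicate block, 37 and 91 without wild-type array 1 and KO array 3 together, 44 and 41 after cyclic loess, 23 and 26 after quantile normalization, 7 and 11 after median centring, 5 and 11 with no filter, 18 and 29 with the lowest 50% left out, 21 and 36 after eBayes with trend, and 3 to 27 and 3 to 71 without any 1 array. In bulge the lower calls were also 5564 with no filter and 740 with the lowest 50% left out, and the higher ones 3494 with the spread of all 12 arrays. The difference between tissues called 1404 higher and 788 lower as deposited, 2624 and 381 after median centring, 371 and 196 with the replicate block, and 2936 and 1435 without wild-type array 1 and KO array 3 together. Whether the replicate numbers pair the samples is not known. Deviations of same-numbered arrays from their group means correlated at 0.24, 0.26 and -0.06 in bulge and -0.44, 0.04 and -0.52 in epidermis. With 3 arrays a group these values cannot decide it. Array quality weights, added later, did not converge with 3 arrays a group and were not used.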

Other observations

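Of the markers of basal epidermis 3 of 7 were called higher and 0 lower in clock-positive bulge cells, and of those of differentiated epidermis 0 higher and 2 of 7 lower. Of all genes tested 45.2% were called higher and 18.3% lower as deposited. Basal markers called lower were 1 after quantile normalization and 2 after cyclic loess. After median centring 3 of the differentiated markers were called higher. Melanocyte markers were called in bulge cells, 1 higher and 4 lower of 5 tested in clock-positive cells, and dermal fibroblast markers 1 higher and 2 lower of 4. The lower melanocyte calls were 3 after median centring, quantile normalization or cyclic loess. Fibroblast calls were 2 higher and 0 lower after median centring, and 0 and 1 after quantile normalization or cyclic loess. Of the 6 sebocyte markers measured in bulge 2 were tested, Scd1 and Fasn, and both rose as deposited and 0 after quantile normalization or cyclic loess. The others were too dim to be tested and went the other way. Mc5r was at -0.28, Pparg at -0.23, Awat1 at -0.16 and Awat2 at -0.16. In epidermis 0 of 4 melanocyte, 0 of 3 fibroblast and 0 of 3 sebocyte markers passed, and the mean log2 level of the basal epidermis markers ran from 12.64 to 12.68 in the KO and from 12.67 to 12.70 in wild type.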
